A study of Mus musculus with 8 samples.

Results

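The nuclear pore complex is the channel through which proteins and RNA cross the nuclear envelope, and its parts together with the soluble factors that carry cargo through it were examined here in mouse fibroblasts transfected with a miR-127-3p mimic. The genes were chosen by a rule on their symbols, drawn up with earlier results of these data known: numbered nucleoporin (Nup), karyopherin (Kpna, Kpnb), importin (Ipo) and exportin (Xpo) genes other than Xpo5, plus Tpr, Ndc1, Pom121, Aaas, Ran, Rcc1, Rangap1, Ranbp1 and Cse1l. The rule gave 46 genes, 23 of the pore and 23 of the soluble machinery. Of these, 44 had a probe bright enough to test, among 17106 features tested on the array, and 43 were well above background on all 8 arrays. The remaining pair, the membrane nucleoporin Nup210 and the importin alpha Kpna7, were not well above background on any array with any probe, so no change is given for them.

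The study measured messenger RNA in dermal cells that were isolated from newborn C57BL/6 mouse skin, cultured, and labelled as fibroblasts. A group of 4 samples had received a mimic of miR-127-3p, a synthetic stand-in for the mature microRNA, and the other 4 had received control oligonucleotides. For 2 control samples, 3 and 6, the treatment label names both agents, and the title was taken as the group. Labels do not say whether the samples of a group came from separate cultures or animals, so p-values measure the spread between these samples, which may be technical. The level of the mature microRNA was not analysed here, and no source used here gives the duration or dose of the transfection. Each sample was hybridised to its own array in a single dye, and all 8 arrays lay on 1 slide, with 2 mimic and 2 control samples in each of its 2 rows.

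The mature microRNA that the mimic stands in for has the sequence below, listed by RefSeq for mouse build GRCm38.p6 at chr12:109592888-109592909 on the plus strand. It is shown because the response to its mimic was measured, with its seed (bases 2 to 8) in capitals. Whether transcripts of the members hold a match to this seed was not analysed here.
mmu-miR-127-3p: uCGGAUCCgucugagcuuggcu

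As background, the pore is built from rings: an outer ring of Y-shaped complexes on each face, an inner ring, membrane proteins that anchor it, a central channel of proteins rich in phenylalanine-glycine repeats, cytoplasmic filaments and a nuclear basket. Importins bind cargo in the cytoplasm and exportins bind it in the nucleus, and the small GTPase Ran sets the direction, since RCC1 loads it with GTP at chromatin while RanGAP1 triggers hydrolysis in the cytoplasm. In dividing animal cells the pore is taken apart and rebuilt at each mitosis, and Ran and importins also act in building the spindle.

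Transcripts of both classes were lower with the mimic. Of the 44 tested members, 30 fell and 1 rose (limma, adjusted p under 0.05 over all features). In the whole array, 34.2% of features passed the test, 18.3% lower and 15.9% higher, so the 68.2% of members that were lower stands beside a background of 18.3%. That background is not matched to the members: 12044 of its 17106 features had a gene symbol, and it holds dimmer probes. Among features well above background on all 8 arrays, 30 of 43 members and 2959 of all 15005 features fell. In bulk RNA, fewer cells of a type and less RNA per cell cannot be told apart. The median log2 fold change, mimic over control, was -0.47 for the members and 0.02 for all features tested. A fall of at least 2-fold was measured for 6 members (13.6%), against 3.88% of all features. The groups' arrays did not overlap for 31 members (70.5%), against 34.2% of all features.

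The pore genes and the soluble genes fell equally often, 15 of 22 tested in each class. The median log2 fold change was -0.52 for the pore and -0.46 for the soluble class. Relative to the control means, the median of the pore genes was -0.49, -0.59, -0.43 and -0.60 on the arrays of mimic samples 2, 4, 5 and 7, against 0.04, -0.07, -0.05 and 0.06 on those of control samples 1, 3, 6 and 8. For the soluble genes it was -0.46, -0.55, -0.30 and -0.54 with the mimic, against 0.03, 0.04, -0.03 and 0.00 in controls. With the Ran cycle genes counted as soluble, both classes were thus alike in count and median. The spread lay within each class, from -1.09 to 0.05 in the pore and from -1.27 to 0.35 in the soluble machinery. Without the 4 Ran cycle genes, all of which fell, 11 of 18 tested soluble carriers fell (61.1%), with a median of -0.40. Below, the values of the arrays are always given in the same order (mimic samples 2, 4, 5 and 7, control samples 1, 3, 6 and 8), as log2 signal with the array's 75th percentile at 0. Signals of different probes are not comparable as levels.

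**Figure D1:**
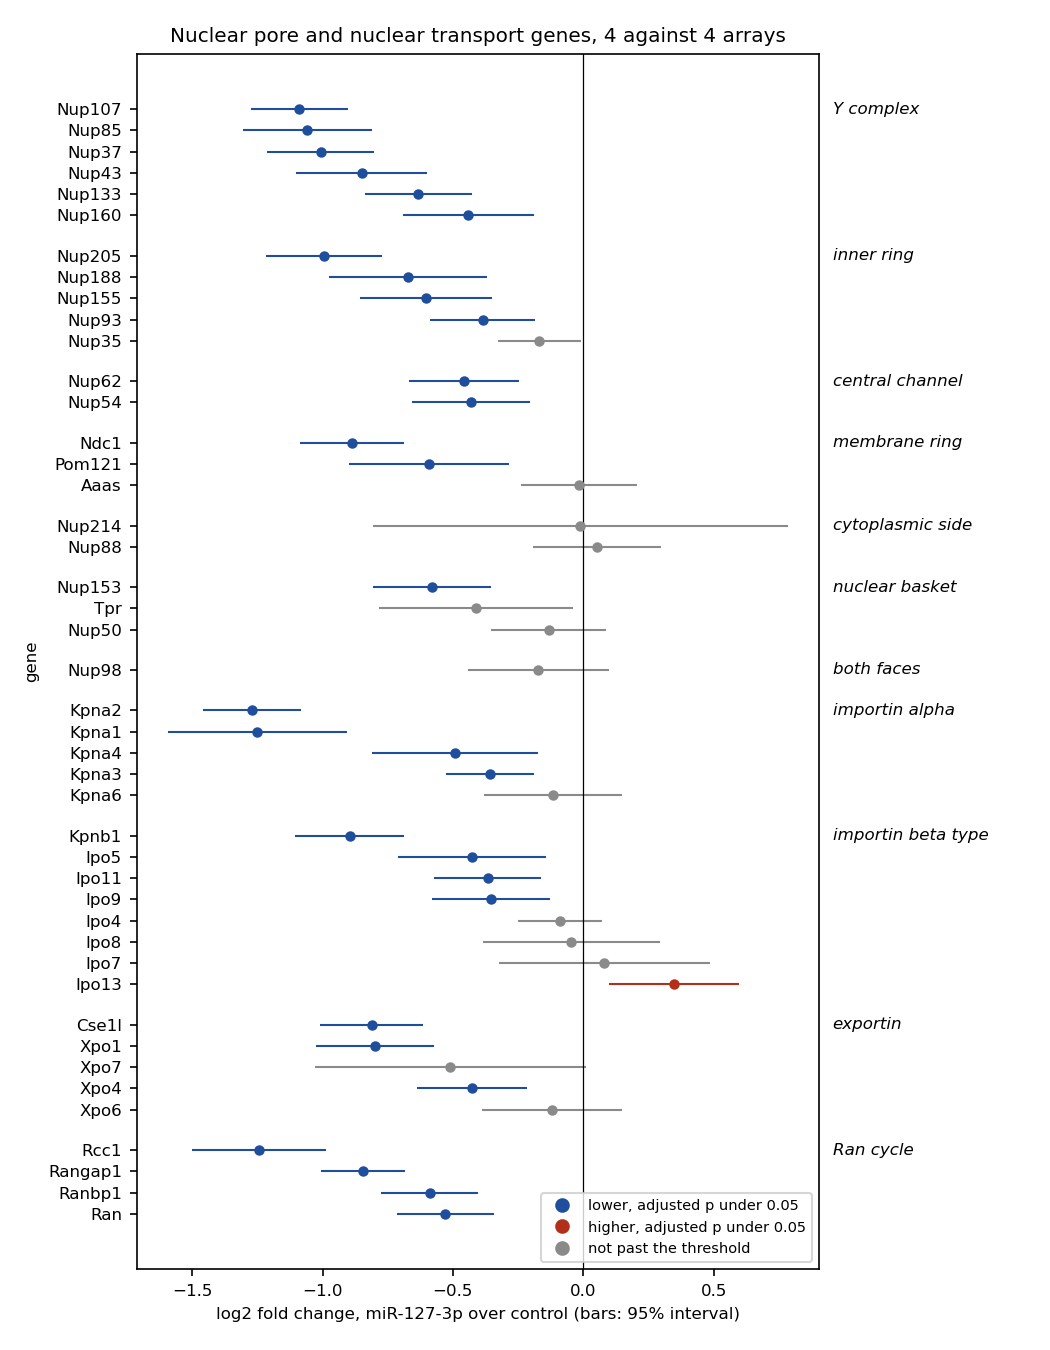
Log2 fold change (miR-127-3p over control, horizontal axis) of the 44 tested members, grouped by subcomplex or carrier family, with 95% intervals from limma over 4 against 4 arrays. Blue points fell and the red point rose at an adjusted p under 0.05, and the falls run from -1.27 (Kpna2) to -0.35 (Ipo9).

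In the outer ring, the 6 tested genes grouped here as the Y complex all fell, with a median of -0.93. Nup98, whose transcript also encodes the Y-complex subunit Nup96, was grouped apart and did not pass (-0.17, adjusted p = 0.291). Outside the symbol rule, the subunits Seh1l and Sec13 did not pass, and Ahctf1, which encodes ELYS, fell (-0.56, adjusted p = 0.00339). The Y complex is the main scaffold of the pore, and part of it moves to kinetochores in mitosis. Nup107, a scaffold subunit, had 3.91, 3.70, 3.85 and 3.66 with the mimic, against 4.85, 4.92, 4.83 and 4.88 in controls. The lowest control array lay far above the highest mimic array, and the log2 fold change was -1.09 (SE 0.08, adjusted p = 4.64e-05), a 2.13-fold lower level. Nup85 had 3.90, 3.67, 3.70 and 3.54 with the mimic, against 4.96, 4.68, 4.62 and 4.79 in controls (-1.06, SE 0.11, adjusted p = 0.000197). Nup37, a propeller-shaped subunit, had 2.53, 2.60, 2.49 and 2.48 with the mimic, against 3.63, 3.35, 3.48 and 3.67 in controls (-1.01, SE 0.09, adjusted p = 0.000103). In both genes the groups stood apart, and the mimic arrays of Nup37 lay within a narrow band. Nup43 (-0.85), Nup133 (-0.63) and Nup160 (-0.44) fell too, with adjusted p-values from 0.000684 to 0.0153. The fall of Nup160 was the smallest of the 6, and it missed the threshold once slide column entered the model (adjusted p = 0.0594).

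The inner ring, the layer that lines the waist of the pore, had 4 of 5 genes lower, with a median of -0.60. Nup205, one of its largest scaffold proteins, had 3.14, 2.88, 3.16 and 2.86 with the mimic, against 4.09, 3.91, 3.99 and 4.04 in controls (-0.99, SE 0.10, adjusted p = 0.00016). Its relative Nup188 had a log2 fold change of -0.67 (adjusted p = 0.00543) by the brighter of its 2 tested probes and -0.11 by the other, which did not pass. Nup155 (-0.60, adjusted p = 0.00391) and Nup93, which links the ring to the channel (-0.39, adjusted p = 0.0101), were also lower. Nup35 did not pass, although its groups did not overlap: it had 3.51, 3.58, 3.46 and 3.56 with the mimic, against 3.64, 3.71, 3.75 and 3.68 in controls (-0.17, 95% interval -0.33 to -0.01, adjusted p = 0.0939). The 5 genes of this ring therefore ranged from a change near 2-fold to one too small for the test.

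Of the central channel, which forms the selective barrier, the 2 tested members fell, while Nupl1 (also called Nup58), which the symbol rule does not reach, had a log2 fold change of -0.12 (adjusted p = 0.449). Nup62 had 5.08, 5.38, 5.30 and 5.37 with the mimic, against 5.77, 5.78, 5.80 and 5.62 in controls (-0.46, SE 0.09, adjusted p = 0.00601). Nup54 had a log2 fold change of -0.43 (adjusted p = 0.0106), and its second tested probe one of -0.24, which did not pass. Of the membrane ring, Ndc1, a transmembrane protein needed for inserting pores into the envelope, had 1.96, 1.84, 1.74 and 1.77 with the mimic, against 2.84, 2.60, 2.66 and 2.76 in controls (-0.89, SE 0.09, adjusted p = 0.000161). Pom121, another membrane protein, fell by 0.59 on the log2 scale (adjusted p = 0.0103). Aaas, which encodes ALADIN, the soluble partner that Ndc1 holds at the pore, had a log2 fold change of -0.02 (95% interval -0.24 to 0.21, adjusted p = 0.914). The difference between Aaas and Ndc1 was not tested.

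Neither tested member of the cytoplasmic side passed the test. Of 8 tested pore genes that the symbol rule does not reach, 3 fell (37.5%, against 18.3% of all features). Among these were Gle1 (-0.45, adjusted p = 0.00207) and Ranbp2 (-0.33, adjusted p = 0.0254) of the cytoplasmic filaments. Those that did not pass included Nupl2 (0.02, adjusted p = 0.863) and Rae1 (-0.21, adjusted p = 0.0576). Nup88, which anchors the filaments with Nup214, had 3.03, 3.03, 3.16 and 2.78 with the mimic, against 3.13, 2.96, 2.82 and 2.88 in controls, and these ranges overlapped (0.05, 95% interval -0.19 to 0.30, adjusted p = 0.740). Nup214 was dim, well above background on 2 of 4 arrays in each group, and its interval of -0.81 to 0.78 leaves its change unmeasured. Of the nuclear basket, Nup153, an anchor of the basket that binds importins, had 1.91, 1.76, 2.06 and 1.81 with the mimic, against 2.62, 2.35, 2.36 and 2.53 in controls (-0.58, SE 0.10, adjusted p = 0.00277). Tpr, the long coiled-coil protein of the basket, had a log2 fold change of -0.41 by its brightest probe (adjusted p = 0.0832), with mimic sample 5 high at 1.57 and the other mimic arrays at 1.15 to 1.17. Its second probe gave -0.43 (adjusted p = 0.0158 over all probes), and the first passed without mimic sample 5 (adjusted p = 0.0416). The log2 fold change of Nup50, a mobile basket protein, was -0.13 (95% interval -0.35 to 0.09). Nup98, whose transcript also encodes the Y-complex subunit Nup96, had 0.51, 0.61, 0.25 and 0.44 with the mimic, against 0.85, 0.41, 0.68 and 0.58 in controls, with overlapping ranges (-0.17, 95% interval -0.44 to 0.10, adjusted p = 0.291).

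**Figure D2:**
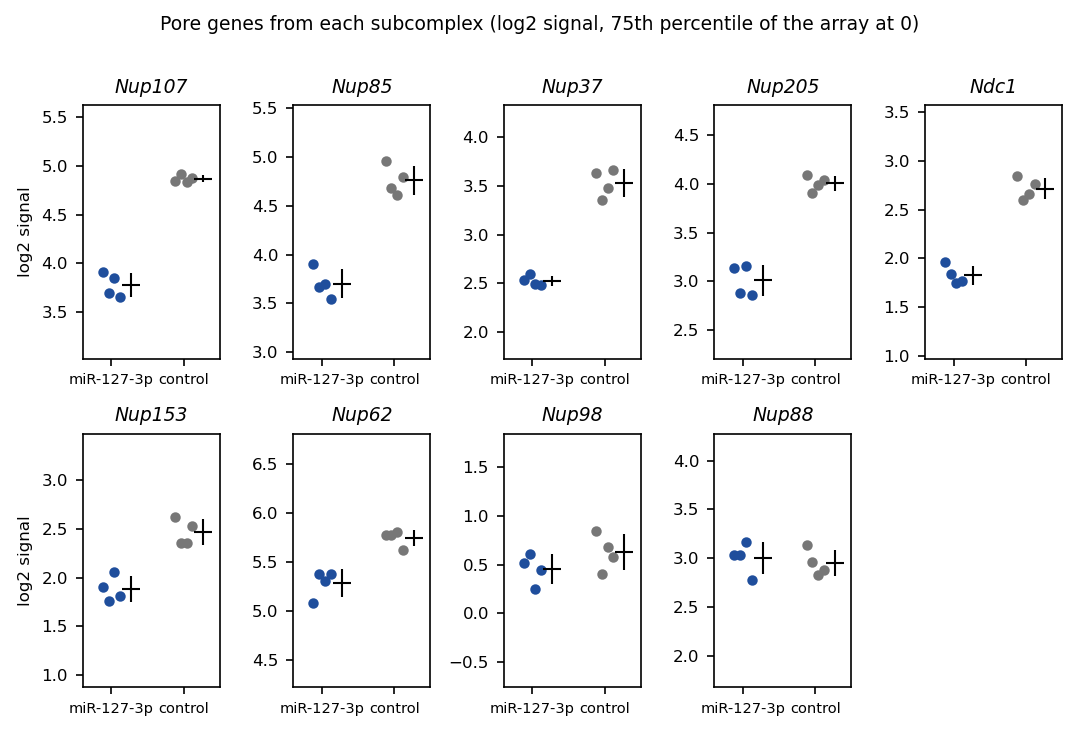
Log2 signal (vertical axis, the array's 75th percentile at 0, the same span in each panel) of 9 pore genes on each mimic and control array, with the mean and SD of 4 arrays beside the points. The groups stand apart for Nup107, Nup85, Nup37, Nup205, Ndc1, Nup153 and Nup62, and overlap for Nup98 and Nup88.

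Among the soluble factors, the importin alpha family, the adaptors that recognise classical nuclear localisation signals, held the largest falls. Kpna2, the adaptor known for its high level in dividing cells, had 5.45, 5.39, 5.61 and 5.38 with the mimic, against 6.83, 6.68, 6.72 and 6.68 in controls. Every control array lay above every mimic array, and the log2 fold change of -1.27 (SE 0.08, adjusted p = 2.49e-05) makes it 2.41-fold lower with the mimic. All 4 of its probes gave nearly the same value, from -1.36 to -1.27. Kpna1 had 0.09, -0.23, 0.43 and -0.23 with the mimic, against 1.16, 1.38, 1.25 and 1.27 in controls (-1.25, SE 0.15, adjusted p = 0.000474). The mimic arrays of Kpna1 varied more (SD 0.31) than its control arrays (SD 0.09), yet did not reach them. With normexp background correction its log2 fold change was -0.98, still past the threshold.

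Other adaptors moved less. Kpna4 had 1.70, 1.47, 1.97 and 1.52 with the mimic, against 2.36, 2.29, 1.96 and 2.02 in controls (-0.49, SE 0.14, adjusted p = 0.0264). Mimic sample 5 lay just above control sample 6, and the call was lost without control 1, control 3, mimic 4 or mimic 7 (adjusted p = 0.0704, 0.0575, 0.0750 and 0.0713). Kpna3 had 2.21, 2.07, 2.18 and 2.02 with the mimic, against 2.46, 2.53, 2.46 and 2.46 in controls (-0.36, SE 0.07, adjusted p = 0.00688), and its 3 probes gave -0.47 to -0.36. Kpna6 had 3.46, 3.11, 3.52 and 3.14 with the mimic, against 3.54, 3.47, 3.31 and 3.38 in controls, with overlap (-0.12, 95% interval -0.38 to 0.15, adjusted p = 0.476). Its second probe gave 0.14, so its 2 probes differ in sign and neither passed. The 5 tested adaptors thus ran from a fall past 2-fold (Kpna2, Kpna1) to no call (Kpna6).

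Of the 8 importin beta type receptors, which carry cargo through the channel, 4 fell and 1 rose. Kpnb1, importin beta 1, the partner of all importin alpha adaptors, had 2.04, 1.83, 2.02 and 1.81 with the mimic, against 2.90, 2.71, 2.77 and 2.90 in controls (-0.90, SE 0.09, adjusted p = 0.000193). The gap between its groups was wider than the range within either group. Smaller falls were those of Ipo5 (-0.43, adjusted p = 0.0290), which imports histones and ribosomal proteins, Ipo11 (-0.37, adjusted p = 0.0143) and Ipo9 (-0.35, adjusted p = 0.0254). The second probe of Ipo5 gave -0.18 and did not pass, and the 2 groups of its brighter probe overlapped. The call of Ipo5 was lost without any 1 of control 1, 3 or 8 or mimic 2, 4 or 7 (adjusted p = 0.0543 to 0.0798). That of Ipo9 was lost without mimic 2 or 7 or control 3 or 8 (adjusted p = 0.0539 to 0.0649).

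Ipo13, a receptor that both imports and exports cargo, was the single member that rose. It had 3.80, 4.05, 3.57 and 3.82 with the mimic, against 3.40, 3.51, 3.56 and 3.38 in controls (0.35, SE 0.11, adjusted p = 0.0388). Mimic sample 5 lay only just above control sample 6, and the call was lost on leaving out any 1 of the other 7 arrays (adjusted p = 0.0533 to 0.0941), while the log2 fold change stayed between 0.22 and 0.47 in all 20 alternatives. Ipo4, Ipo7 and Ipo8 did not pass, with log2 fold changes of -0.09, 0.08 and -0.05. The interval of Ipo4 was narrow (-0.25 to 0.07), and those of Ipo7 (-0.33 to 0.49) and Ipo8 (-0.39 to 0.29) were wider.

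Of 5 exportins, 3 fell. Cse1l, which returns importin alpha to the cytoplasm, had 2.46, 2.42, 2.49 and 2.24 with the mimic, against 3.13, 3.32, 3.16 and 3.25 in controls (-0.81, SE 0.09, adjusted p = 0.000244). Xpo1, the receptor for leucine-rich export signals, had 2.27, 2.10, 2.19 and 2.08 with the mimic, against 3.11, 2.75, 2.92 and 3.06 in controls (-0.80, SE 0.10, adjusted p = 0.000554). A second probe of Xpo1 read -0.79. Xpo4 fell by 0.43 on the log2 scale (adjusted p = 0.00812). Xpo6, the exportin of actin and profilin, had a log2 fold change of -0.12 (95% interval -0.39 to 0.15). The 2 probes of Xpo7 gave -0.51 and -2.16, neither past the threshold, and the dimmer one was well above background on 2 of 4 mimic arrays. On the brighter probe the lowest array was mimic 7 at -1.94, below the -1.27 to -0.90 of the other mimic arrays.

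All 4 genes of the Ran cycle fell. Rcc1, which loads Ran with GTP, had 3.13, 2.92, 3.43 and 3.21 with the mimic, against 4.35, 4.37, 4.42 and 4.51 in controls (-1.24, SE 0.11, adjusted p = 0.000109), a 2.37-fold lower level. Rangap1, which activates hydrolysis, had 3.07, 3.10, 3.05 and 3.01 with the mimic, against 3.81, 3.95, 3.96 and 3.88 in controls (-0.85, SE 0.07, adjusted p = 7.27e-05). The genes for the enzymes at opposite ends of the Ran cycle were therefore both lower, each with groups well apart. Ranbp1, which helps strip Ran from its receptors, had 4.09, 4.02, 4.11 and 4.07 with the mimic, against 4.80, 4.66, 4.51 and 4.68 in controls (-0.59, SE 0.08, adjusted p = 0.000966). Ran itself had 7.48, 7.54, 7.72 and 7.58 with the mimic, against 8.20, 8.12, 8.08 and 8.03 in controls (-0.53, SE 0.08, adjusted p = 0.00162). A second probe of Ran gave -0.23 and did not pass, and since near-identical copies of Ran exist in the mouse genome, its value is uncertain as that of a single gene.

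**Figure D3:**
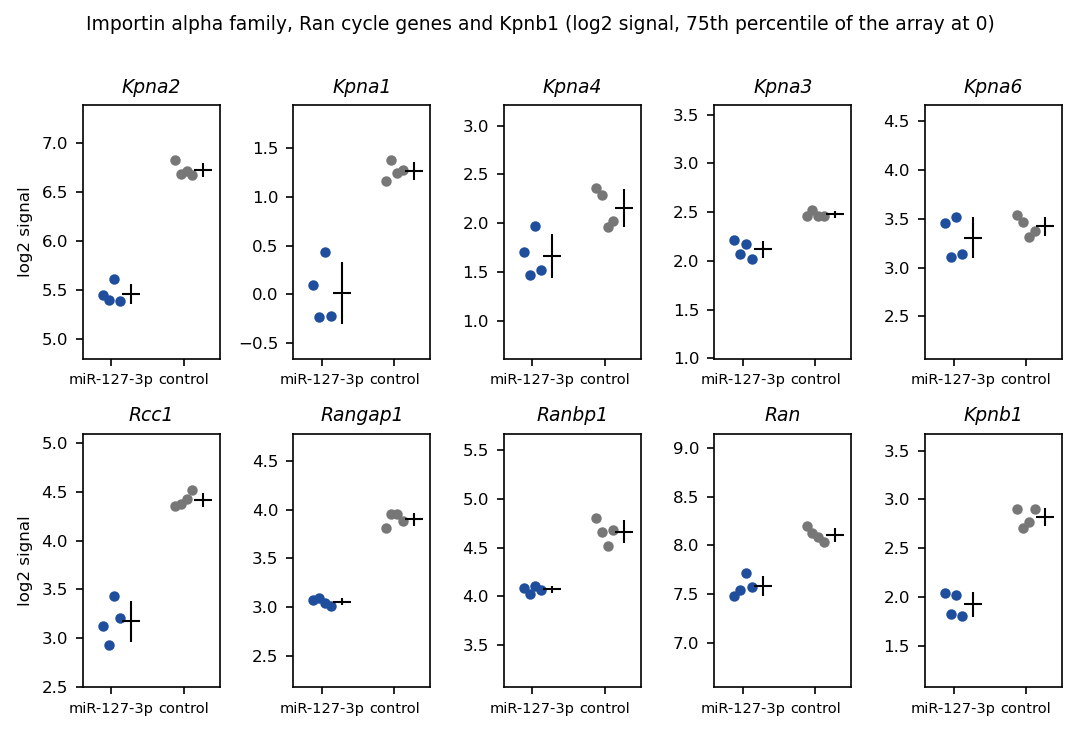
Log2 signal (vertical axis, the array's 75th percentile at 0, the same span in each panel) of the 5 tested importin alpha genes, the 4 Ran cycle genes and Kpnb1 on each mimic and control array, with the mean and SD of 4 arrays. The groups stand apart in all panels but those of Kpna4, where 1 mimic array reaches the controls, and Kpna6, where they overlap.

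**Figure D4:**
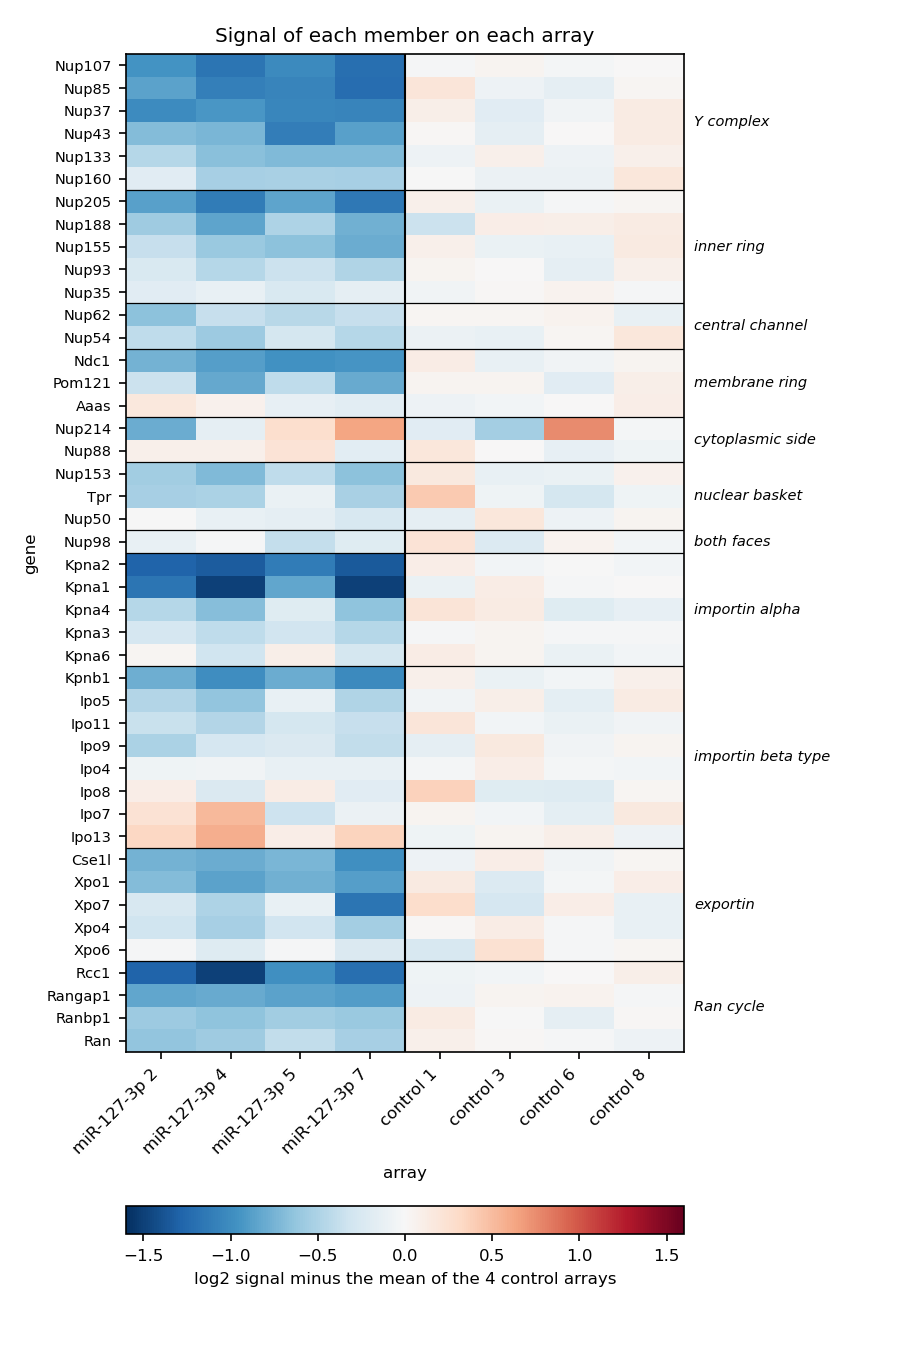
Log2 signal of the 44 tested members on each array minus the gene's mean over the 4 control arrays (colour, blue below and red above), with mimic arrays left of the line and control arrays right of it. The 6 members grouped as Y complex, Kpna2, Kpna1, Kpnb1, Cse1l, Xpo1 and the Ran cycle are blue on all 4 mimic arrays, and Ipo13 is red on them.

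Genes of the same machinery that the symbol rule does not reach were listed separately. Of 24 tested, 11 fell and 1 rose (45.8% lower, against the 18.3% of all features), with a median log2 fold change of -0.27. The falls included Ahctf1, which encodes ELYS, the protein that seeds pore assembly on chromatin (-0.56, adjusted p = 0.00339), Gle1 (-0.45) and Ranbp2 (-0.33) of the cytoplasmic filaments, and the mRNA export pair Nxt1 (-0.71, adjusted p = 0.00015) and Nxf1 (-0.43). The import receptor Tnpo1 fell by 0.63 on the log2 scale (adjusted p = 0.00394), whereas its close relative Tnpo2 rose by 0.55 (adjusted p = 0.00655). Subunits of the Y complex that also serve elsewhere did not pass: Sec13, which is shared with the coat of secretory vesicles, had -0.03 (adjusted p = 0.860), and Seh1l, shared with a nutrient-sensing complex, had -0.27 (adjusted p = 0.0915).

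Promoters were set beside these falls, because genes of dividing cells often carry a CHR element, CCAAT boxes or E2F-type sites. RefSeq windows of build GRCm38.p6, from 250 bases before to 50 after a start site, were listed for 37 of the 46 members. The sequences below are those of 3 of the 4 members with the largest falls, Kpna2 (chr11:106999476-106999775, minus strand), Rcc1 (chr4:132345701-132346000, minus strand) and Nup107 (chr10:117792656-117792955, minus strand), with Kpna1 named only. Both strands were searched. The letters of the CHR element were TTTGAA, with the variant form TTCGAA also taken. The CCAAT box was searched by the letters of its name. An E2F-type site was a match to TTCCCGC, to its variant form TTCGCGC, or to the further variant form TTGGCGC. Capitals mark the matches, and none overlaps another in these windows.
Kpna2: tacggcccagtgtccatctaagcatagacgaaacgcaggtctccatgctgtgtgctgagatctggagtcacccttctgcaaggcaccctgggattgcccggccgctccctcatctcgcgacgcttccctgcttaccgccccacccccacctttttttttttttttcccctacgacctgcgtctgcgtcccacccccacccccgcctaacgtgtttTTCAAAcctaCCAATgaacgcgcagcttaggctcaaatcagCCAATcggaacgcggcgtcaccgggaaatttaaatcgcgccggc
Rcc1: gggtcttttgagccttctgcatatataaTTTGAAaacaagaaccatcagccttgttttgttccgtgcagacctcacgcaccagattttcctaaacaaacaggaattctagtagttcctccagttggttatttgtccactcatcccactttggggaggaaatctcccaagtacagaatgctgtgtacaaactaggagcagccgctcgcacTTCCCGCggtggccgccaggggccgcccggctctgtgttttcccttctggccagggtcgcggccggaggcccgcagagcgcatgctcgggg
Nup107: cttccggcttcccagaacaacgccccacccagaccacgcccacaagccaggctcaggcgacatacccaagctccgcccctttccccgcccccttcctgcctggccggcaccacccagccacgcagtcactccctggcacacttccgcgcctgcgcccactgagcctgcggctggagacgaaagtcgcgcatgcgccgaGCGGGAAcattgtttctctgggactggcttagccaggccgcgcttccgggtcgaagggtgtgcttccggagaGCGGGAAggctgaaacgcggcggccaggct

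The window of Kpna2 holds 1 CHR match and 2 CCAAT boxes, that of Rcc1 holds 1 CHR match and 1 E2F-type match, and that of Nup107 holds 2 E2F-type matches. Of the 24 lower members with a window, 33.3% held a CHR match, against 36.4% of the 11 tested members that were not lower and 21.7% of all 27025 genes with a window. CCAAT boxes were in 12 of the 24 lower members, 54.5% of those not lower and 41.1% of all genes, and E2F-type matches in 20.8%, 18.2% and 9.20%. The shares of members rest on few genes, and the differences between shares were not tested. The set of all genes is not matched to the members, since it was not limited to genes tested on these arrays. A match is a description of letters and not a measured binding site.

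Values that moved with these falls were measured on the same arrays. All 14 tested genes of a cell division list (16 genes, such as Mki67, Top2a and Ccnb1) fell, with a median log2 fold change of -1.97, while Aurkb and Cenpf were not well above background on any array. Their summed signal, in units of each array's 75th percentile, was 123 to 157 on mimic arrays, against 388 to 442 on control arrays. The medians of the members were -0.52 for the pore and -0.46 for the soluble genes. All 8 fibroblast markers, among them Col1a1, Pdgfrb, Vim and Thy1, were well above background on every array, and 1 rose (Dcn) and 1 fell (Pdgfra). Of 5 macrophage and leukocyte markers 4 were tested and rose (Lyz2, Cd68, Csf1r and Tyrobp), while Ptprc was not well above background on any array. In the same units their summed signal was 13.3 to 23.3 on mimic arrays, against 8.05 to 8.77 on control arrays. Fibroblast markers summed to 1394 to 1491 on mimic arrays, and to 1262 to 1475 on control arrays. Of 3 tested keratinocyte markers 1 rose (Krt10), and none of the tested endothelial, melanocyte, Schwann cell or muscle markers passed. The endothelial marker Cdh5 and the muscle marker Myod1 were too dim on most arrays to be tested. Cdh5 was well above background on 3 of 4 mimic arrays and 0 of 4 control arrays, and its log2 signals, -2.89 to -1.34 on mimic arrays against -4.67 to -3.39 on control arrays, did not overlap. Myod1 was well above background on 0 of 4 mimic arrays and 3 of 4 control arrays. The part of dividing cells, macrophages or endothelial cells in the members' falls was not tested.

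Position on the slide was examined as a batch. Of the 44 tested members, 38 had a negative log2 fold change both within slide row 1 and within row 2, each with 2 arrays a group. The share of all features with this pattern was not computed. All 30 members that fell were among the 38. They were called on these same arrays, so their sign in each row is not separate evidence. Kpna2 had -1.34 in row 1 and -1.20 in row 2, Rcc1 -1.34 and -1.15, and Nup107 -1.08 and -1.10. Kpna4 differed more between the rows (-0.74 and -0.25), as did Tpr (-0.69 and -0.13). Among members that did not pass, Ipo7 (0.37 and -0.21) and Aaas (0.17 and -0.21) changed sign between the rows. Each of the 4 slide columns held 1 mimic and 1 control array. With column in the model 27 members fell and 0 rose, while 2224 of all 17106 features were lower, against 3135 without it. The calls of Nup160, Nup93 (adjusted p = 0.0590), Nup54 (0.0567), Ipo5 (0.0822), Ipo9 (0.0780) and Ipo13 (0.0880) were then lost, while Tpr (0.0349) and Xpo7 (0.0405) passed as lower.

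**Figure D5:**
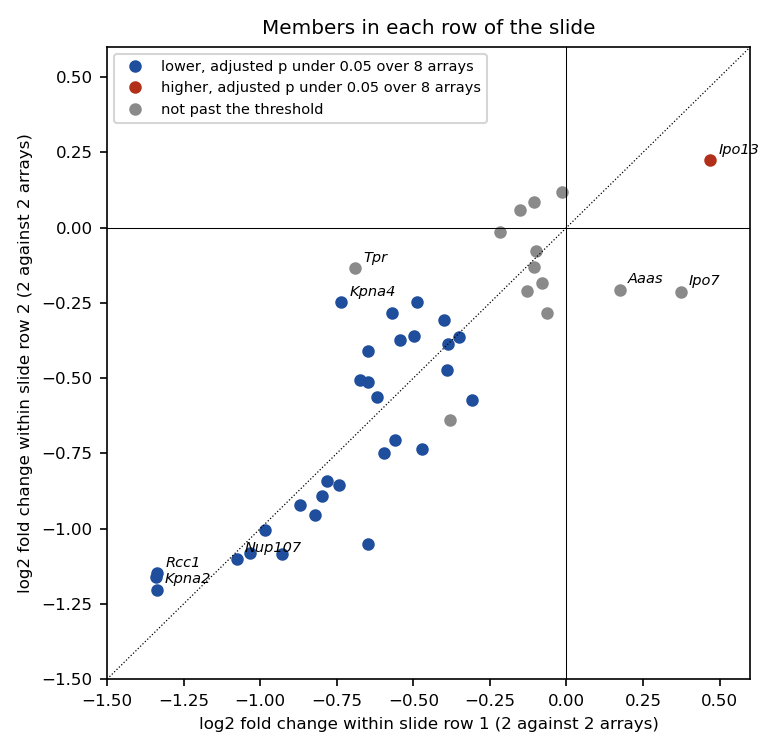
Log2 fold change (miR-127-3p over control) within slide row 1 (horizontal) against row 2 (vertical), 2 against 2 arrays in each, for the 44 tested members, with the dotted line marking equal values. All blue points, the members called lower over these same 8 arrays, lie below 0 in both rows. Kpna2 and Rcc1 are near the far end at -1.34 in row 1.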

How the data were processed

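Per the file headers, the deposited scanner tables hold intensity values from Agilent Feature Extraction (version 11.5.1.1), 1 colour per array. The deposited value table holds log2 values per probe that differ from the log2 processed intensity by 1 constant per array (SD over probes at most 2.78e-07), so the authors set each array's 75th percentile near 0. Column medians of that table ran from -3.78 to -3.60.

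Control spots and outlier spots were left out, spots of a probe were averaged on the log2 scale (55681 probes), and each array's 75th percentile was subtracted. Probe accessions were matched without versions to RefSeq symbols of GRCm38.p6 (28331 probes matched, 27350 kept the file's name). Probes well above background on at least 4 arrays were tested, with the brightest probe per gene (17106 features), in limma 3.58.1 under R 4.3.3, with Benjamini-Hochberg adjustment and a threshold of 0.05. Each array had 20775 to 23485 probes above background, and the number of arrays limits precision. The fit was tested on simulated data. Mean signals are not used here, so normexp took the median spot and background signals (offset 50). No test was run over lists, and members and lists were chosen with earlier results of these data known. Values on every array are given, per class and direction, for the 5 largest called changes without overlap, for each importin alpha and Ran cycle gene, and for the largest change of each pore subcomplex; of related genes, the 3 largest called changes per direction are named. Nup35, Cse1l, Xpo1 and the related genes Gle1, Ranbp2, Nupl2, Rae1, Nxf1, Nupl1, Sec13 and Seh1l were added after their values were seen.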

Additional observations from a re-analysis of the deposited data

Results flagged for a closer look

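In 7 of 88 groups of 4 arrays (44 members in each of 2 treatments) the highest or lowest array stood apart, since its gap to the nearest array made up most of the group's range (Dixon's 95% critical value); chance flags about 1 in 20 such groups. With the mimic these were Nup133 (sample 2 at 3.11, the others 2.86 to 2.90), Nup160 (sample 2 at 1.15, the others 0.79 to 0.81) and Tpr (sample 5 at 1.57, the others 1.15 to 1.17). In controls they were Nup62 (sample 8 at 5.62, the others 5.77 to 5.80), Nup188 (sample 1 at 0.29, the others 0.73 to 0.77), Kpna3 (sample 3 at 2.53, the others at 2.46) and Ipo4 (sample 3 at 4.79, the others 4.64 to 4.66). All are log2 signals.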

How the results depend on the processing

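Of 31 called members, 10 kept their call in all 20 alternatives and 27 kept it whichever array was left out; no called member changed sign. The 30 falls became 13 within slide row 1 and 13 within row 2, where 2 arrays a group remain (pore 5 and 7, soluble 8 and 6, related genes 2 and 1). Of all 17106 features, 3135 were lower over 8 arrays, 992 within row 1 and 926 within row 2. The single rise was 0 without a filter on dim probes, with slide column as a block and within either row, and 0 to 1 when 1 array was left out. The rise among related genes was 0 within either row and became 2 with the mean over a gene's probes. With that mean, 32 members and 3139 of all 17106 features fell. Tpr (-0.42, adjusted p = 0.0214) and Xpo7 (-1.33, adjusted p = 0.0198) then passed as lower, Xpo7 with its dim probe included. Without the filter, 22 members fell, and 2013 of all 36708 features tested were lower. Members that were not called and changed sign were Nup214 (0.085 in row 2; -0.22 to 0.25 on leaving out 1 array), Nup88 (-0.014 in row 1; -0.0012 to 0.13), Aaas (0.030 with quantile normalization, 0.17 in row 1; -0.077 to 0.034), Kpna6 (0.014 with the mean over probes), Ipo7 (-0.21 in row 2; -0.066 to 0.22) and Ipo8 (0.060 in row 2; -0.11 to 0.076). The cause was not tested. The groups share no replicate number, so samples were matched only by slide column (1 mimic and 1 control array in each). With column in the model, 27 members and 2224 of all 17106 features fell.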
